A study of Mus musculus with 6 samples.

Results

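The miR-200 family was examined in 1 small RNA library of mouse liver. Its members were taken by name as every arm of miR-200b, miR-200a, miR-429, miR-200c and miR-141, which gave 10 distinct mature sequences of the 1963 distinct mouse sequences in the count table. The library is Cre-miR122 replicate 2, labelled as liver of mice given an adeno-associated virus of serotype 9 that carries Cre recombinase under the Tnnt2 promoter together with an element named after miR-122. Tnnt2 encodes cardiac troponin T, and its promoter is used to drive expression in heart muscle cells. The labels name 6 libraries, 3 with this vector and 3 with the Cre vector that lacks the element, so both groups carry Cre. The labels do not say whether a library is 1 animal or a pool. The other 5 libraries were not analysed here, so there is neither a replicate nor a control behind the values, and the stated question of how the vector changes liver miRNAs was not tested. The labels give no strain, age, dose or time after injection.

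The miR-200 family is best known as a set of microRNAs of epithelial cells. Its members repress Zeb1 and Zeb2, transcription factors that in turn repress the E-cadherin gene Cdh1, and loss of the family accompanies the change of epithelial cells to a mesenchymal state. In the liver the family is mostly associated with the bile duct epithelium. A microRNA (miRNA) is cut from a hairpin precursor whose 5p and 3p arms can each give a mature strand, and the seed, bases 2 to 8 of that strand, is the main determinant of which mRNAs it pairs with.

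The 10 sequences are shown because the clusters, seed groups and arms compared here are defined by them. They are copied from the count table in DNA letters, 5′ to 3′, with the seed in capitals. The prefix mmu marks mouse and is left out in the text, and all 10 are identical to the mature sequences of RefSeq on GRCm38.p6.
mmu-miR-200b-3p: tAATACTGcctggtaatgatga
mmu-miR-429-3p: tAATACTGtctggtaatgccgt
mmu-miR-200c-3p: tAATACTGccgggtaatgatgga
mmu-miR-200a-3p: tAACACTGtctggtaacgatgt
mmu-miR-141-3p: tAACACTGtctggtaaagatgg
mmu-miR-200b-5p: cATCTTACtgggcagcattgga
mmu-miR-200a-5p: cATCTTACcggacagtgctgga
mmu-miR-429-5p: gTCTTACCagacatggttaga
mmu-miR-200c-5p: cGTCTTACccagcagtgtttgg
mmu-miR-141-5p: cATCTTCCagtgcagtgttgga

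The 3p arms fall into 2 seed groups, one of miR-200b, miR-429 and miR-200c and the other of miR-200a and miR-141. The groups differ within the seed by T4C, the base of miR-200b-3p being given first and positions being counted from 1 at the 5′ end. No other mouse entry has either 3p seed. The closest pairs lie in different clusters. miR-200c-3p differs from miR-200b-3p by T11G and A22G over the 22 positions compared, and miR-141-3p differs from miR-200a-3p by C17A and T22G. Each 3p arm begins with T, whereas the 5p arms begin with C in 4 cases and with G in miR-429-5p. Over the 120 miRNAs with both arms named and at least 100 mouse-entry reads, the arm with more reads began with T in 52.5% and the other arm in 20.8%.

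The family comes from 2 loci. On mm10 (GRCm38) the cluster of Mir200b, Mir200a and Mir429 lies on the minus strand of chromosome 4, within 1846 bases. Mir200b (ENSMUSG00000065549.3) spans chr4:156055681-156055750, Mir200a (ENSMUSG00000065400.1) spans chr4:156054896-156054985 and Mir429 (ENSMUSG00000065427.1) spans chr4:156053905-156053987. All 3 lie in an intron of the protein-coding gene Ttll10 on the same strand. They also lie within the noncoding gene Gm13648, where Mir429 is exonic and the other two are intronic. Mir200c (ENSMUSG00000065462.3, chr6:124718322-124718390) and Mir141 (ENSMUSG00000065474.1, chr6:124717914-124717985) lie within 477 bases on the minus strand of chromosome 6, in an intron of the noncoding gene Gm15884, and Mir141 also overlaps the unverified gene model Gm29008. The hairpins of Mir200b and Mir200a are shown because arm use and strand ends below refer to them, with the arms recorded by the mouse entries in capitals.
Mir200b: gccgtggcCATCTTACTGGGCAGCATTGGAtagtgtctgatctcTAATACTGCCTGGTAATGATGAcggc
Mir200a: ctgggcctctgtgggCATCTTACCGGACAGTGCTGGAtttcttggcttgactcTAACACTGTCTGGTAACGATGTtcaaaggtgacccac

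The table gave raw read counts for 6661069 reads on mouse entries. It also lists mature miRNAs of other species, and some of these are the same mouse strand with a different first or last base. Such an entry, called an end form below, was assigned to a mouse arm if it matched an annotated mouse hairpin exactly and overlapped that arm by at least 15 nt. Values with end forms are out of 8032208 reads. Levels are given as RPM, reads scaled to a library total of 1000000, out of mouse reads or, with end forms, out of the larger total. Intervals in parentheses are exact 95% intervals (Clopper-Pearson for shares, for ratios from the binomial distribution, conditional on the summed reads). They cover the counting error of reads only. No molecular identifiers are named, so PCR copies count as separate reads. Adapter ligation favours some strands, so a ratio of reads of different strands need not be a ratio of molecules. As a check of the tissue label, a list of hepatocyte miRNAs held 62.6% of mouse reads, while a list of striated muscle miRNAs held 15.8%, led by miR-1a-3p. Of the 4172680 reads of the hepatocyte list, 3856275 were of miR-148a-3p, so its share rests mostly on 1 strand. miR-122-5p, also in that list, had 236027 reads, fewer than the 980271 of miR-1a-3p. With end forms these 2 strands had 685102 and 1065891 reads. The part of the muscle signal in the values below was not tested.

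The family was a minor component of the library. It held 3059 reads, 0.0459% of mouse reads (0.0443 to 0.0476), or 10108 reads and 0.126% (0.123 to 0.128) with end forms. In whole tissue, fewer cells of a type and less RNA per cell cannot be told apart. Mouse-entry reads were found for 6 of the 10 members, and a read in any form for 7. miR-429-5p, miR-200c-5p and miR-141-5p had 0 reads in every listed form. With end forms the exact interval allows up to 0.459 RPM for each, and 3 reads, taken as the floor, are 0.373 RPM.

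miR-200b-3p was the most abundant member by either count. Its mouse entry had 1425 reads, 213.9 RPM (202.97 to 225), and ranked 64th of the 546 mouse sequences with a read. With end forms it had 5791 reads, 721 RPM (703 to 740), and ranked 43rd of 595 arms. It alone made up 46.6% of the family by mouse entries and 57.3% with end forms.

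miR-200a gave the next highest counts, but from a different arm under each count. The mouse entry of miR-200a-5p had 736 reads, 110.5 RPM (103 to 119), above the 526 reads of miR-200a-3p, 79.0 RPM (72.4 to 86.0). With end forms miR-200a-3p had 3088 reads, 384 RPM (371 to 398), and miR-200a-5p had 765, 95.2 RPM (88.6 to 102). The intervals of the 2 arms did not overlap under either count. End forms added 29 reads to miR-200a-5p, and its relative level is lower with them only because the total is larger.

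The remaining members were lower. miR-429-3p, the third member of the chromosome 4 cluster, had 257 reads, or 312 with end forms, which is 38.6 and 38.8 RPM. miR-200c-3p, the leading strand of the chromosome 6 cluster, had 86 reads, or 110 with end forms, 12.9 (10.3 to 15.9) and 13.7 RPM. miR-200b-5p had 29 reads, or 39 with end forms, and was the only other 5p arm with any read. miR-141-3p, which shares its seed with miR-200a-3p, had 0 reads on its mouse entry and 3 on an entry ending 1 nt earlier, 0.373 RPM (0.0770 to 1.09). Neighbours in the order of levels had intervals that did not overlap, both for the 6 members with mouse-entry reads and for the 7 with reads in any form.

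**Figure D1:**
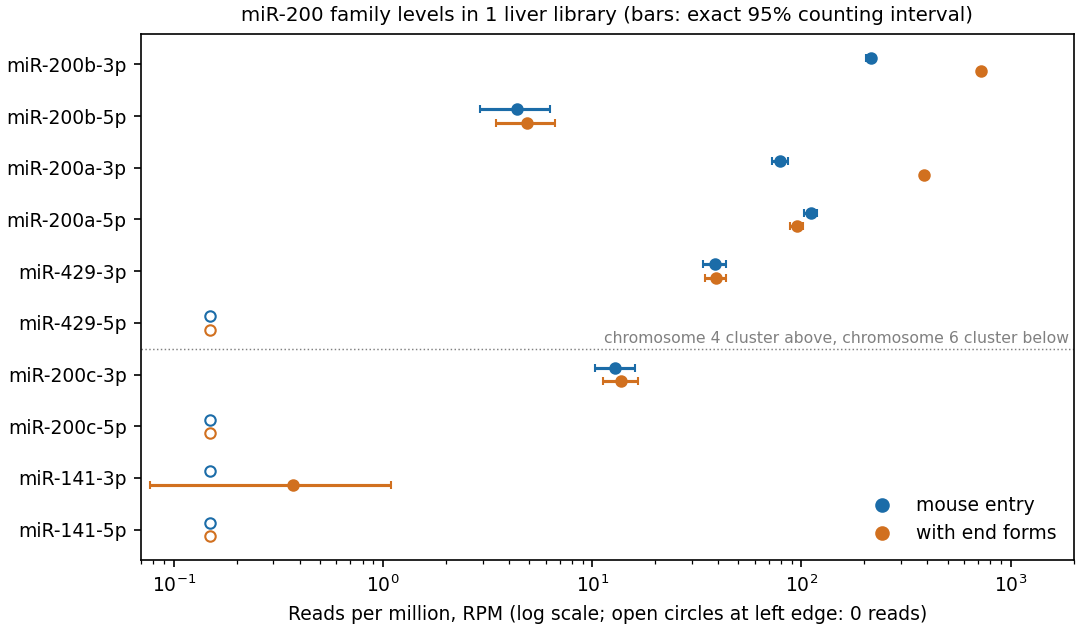
Levels of the 10 family members in RPM on a log axis, by mouse entry (blue, out of mouse reads) and with end forms (orange, out of mouse reads plus end forms), with exact 95% counting intervals. miR-200b-3p and miR-200a-3p move from 213.9 to 721 and from 79.0 to 384 RPM, while miR-429-3p stays at 38.6 and 38.8.

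**Figure D2:**
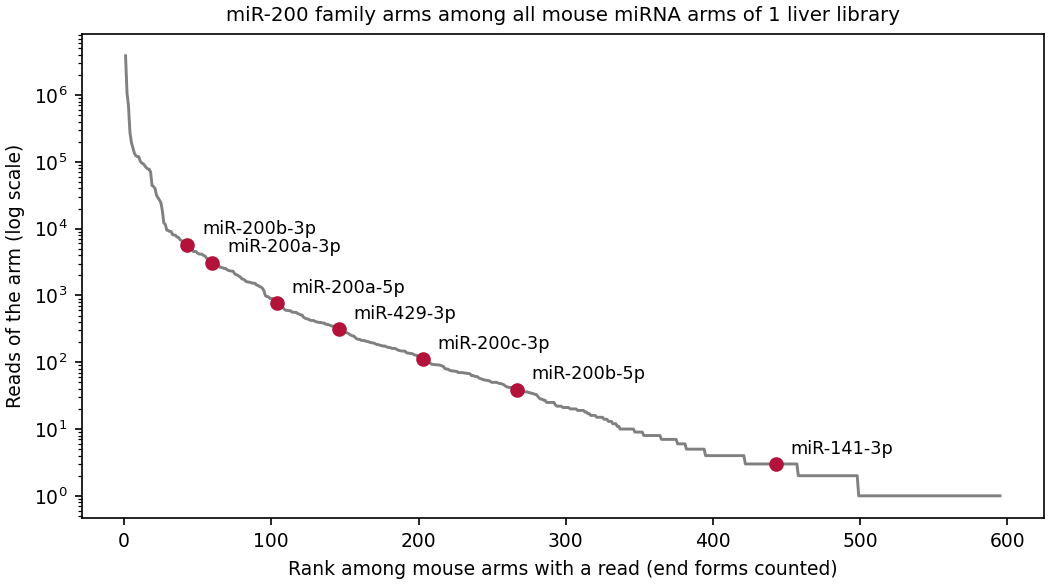
Reads of the 595 mouse arms with a read, in order of abundance with end forms counted, on a log axis, with the 7 detected family arms as red points (arms with equal reads are drawn in arbitrary order). The family spreads from rank 43 (miR-200b-3p) to arms with 3 reads (miR-141-3p).

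Nearly all family reads came from chromosome 4. The cluster of miR-200b, miR-200a and miR-429 had 2973 reads against 86 for the cluster of miR-200c and miR-141, a ratio of 34.6 (27.9 to 43.4). With end forms the counts were 9995 and 113 and the ratio was 88.5 (73.5 to 107). The chromosome 6 cluster thus held 2.81% of family reads by mouse entries and 1.12% with end forms. The mouse entry of miR-200c-3p has 23 nt and the other 3p entries have 22 nt, so the ratio was also taken at lengths that the table lists for all 5 hairpins. Over 3p arms of 21, 22 and 23 nt, lengths chosen after the values were seen, the clusters had 9116 and 113 reads, a ratio of 80.7 (67.0 to 98.0).

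Members of one cluster differed widely in reads although they lie next to each other. With end forms miR-200b-3p had 1.88 reads (1.79 to 1.96) per read of miR-200a-3p and 18.6 (16.6 to 20.9) per read of miR-429-3p. By mouse entries these ratios were 2.71 and 5.54. On chromosome 6, miR-200c-3p had 110 reads with end forms against 3 for miR-141-3p, a ratio of 36.7 (12.2 to 181). miR-200c-3p, which differs from miR-200b-3p at 2 of 22 positions, had fewer reads than it by 16.6 to 1 (13.3 to 20.8) by mouse entries and by 52.6 to 1 (43.6 to 64.2) with end forms. The 2 mouse entries differ in length, 23 nt for miR-200c-3p and 22 nt for miR-200b-3p. At like lengths miR-200b-3p and miR-200c-3p had 1425 and 17 reads at 22 nt, and 3599 and 86 at 23 nt.

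The seed group of miR-200b, miR-429 and miR-200c exceeded that of miR-200a and miR-141. The 3p arms had 1768 and 526 reads by mouse entries, a ratio of 3.36 (3.05 to 3.71). With end forms they had 6213 and 3091 reads, a ratio of 2.01 (1.92 to 2.10). Within each seed group 1 strand held most reads, miR-200b-3p in the first and miR-200a-3p in the second, and the ratio of these 2 strands was 2.71 by mouse entries and 1.88 (1.79 to 1.96) with end forms. The 5p seeds divide the family differently. miR-200b-5p and miR-200a-5p share a seed, and together they held all 765 mouse-entry reads of 5p arms, of which miR-200a-5p had 736.

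The order of the seed groups depended on the length of the listed form, taken here as strand length. At 21 nt the first group had 760 reads and the second 2193, a ratio of 0.347 (0.319 to 0.377). At 22 nt the ratio was 3.23 (2.93 to 3.57) and at 23 nt it was 10.1 (9.04 to 11.2). The same turn is seen in the leading strands alone, with 708, 1425 and 3599 reads of miR-200b-3p at 21, 22 and 23 nt against 2190, 526 and 366 of miR-200a-3p. miR-200a-3p was thus the higher strand at 21 nt and miR-200b-3p at 22 and 23 nt.

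The end forms behind this are shown with bases from position 21 onwards in capitals, first for miR-200b-3p and then for miR-200a-3p.
miR-200b-3p ending 1 nt earlier, 708 reads: taatactgcctggtaatgatG
miR-200b-3p mouse entry, 1425 reads: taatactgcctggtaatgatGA
miR-200b-3p ending 1 nt later, 3599 reads: taatactgcctggtaatgatGAC
miR-200b-3p ending 2 nt later, 58 reads: taatactgcctggtaatgatGACG
miR-200a-3p ending 1 nt earlier, 2190 reads: taacactgtctggtaacgatG
miR-200a-3p mouse entry, 526 reads: taacactgtctggtaacgatGT
miR-200a-3p ending 1 nt later, 366 reads: taacactgtctggtaacgatGTT
miR-200a-3p ending 2 nt later, 2 reads: taacactgtctggtaacgatGTTC

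The listed 3p form with the most reads ended 1 nt after the mouse entry for miR-200b and 1 nt before it for miR-200a. The longer form held 62.1% (60.9 to 63.4) of miR-200b-3p reads, and the shorter form held 70.9% (69.3 to 72.5) of miR-200a-3p reads. The table lists that 21-nt sequence also as miR-141 of a catfish, but it lies in the mouse Mir200a hairpin, and mouse miR-141-3p differs from it by C17A. The mouse entry held 24.6% (23.5 to 25.7) of miR-200b-3p and 17.0% (15.7 to 18.4) of miR-200a-3p. In the 23-nt form of miR-200b-3p, more reads were counted than in the 21-nt and 22-nt forms that it contains, so a read was not counted for every entry lying within it. How reads were given to entries is otherwise not stated, so the length of an entry need not be the length of its reads.

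The other arms of the family were counted mainly on their mouse entries. These held 82.4% (77.7 to 86.4) of miR-429-3p, 78.2% (69.3 to 85.5) of miR-200c-3p, 96.2% (94.6 to 97.4) of miR-200a-5p and 74.4% (57.9 to 87.0) of miR-200b-5p. For miR-429-3p a form ending 1 nt later is listed and had 0 reads, and a form ending 1 nt earlier had 45. For miR-200c-3p only shorter forms are listed, with 17 reads at 1 nt and 7 at 2 nt before the end of the mouse entry. A longer form cannot be seen where no species' entry records it.

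Low mouse-entry shares were common in this library. Of the 95 arms with at least 1000 reads with end forms, 42 (44.2%) had under 50% of their reads on the mouse entry, and the median was 69.3%. miR-200b-3p and miR-200a-3p were among these 42, with 27 and 21 of the 95 arms lower than them. Their shares were thus low but inside the range of the other arms.

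**Figure D3:**
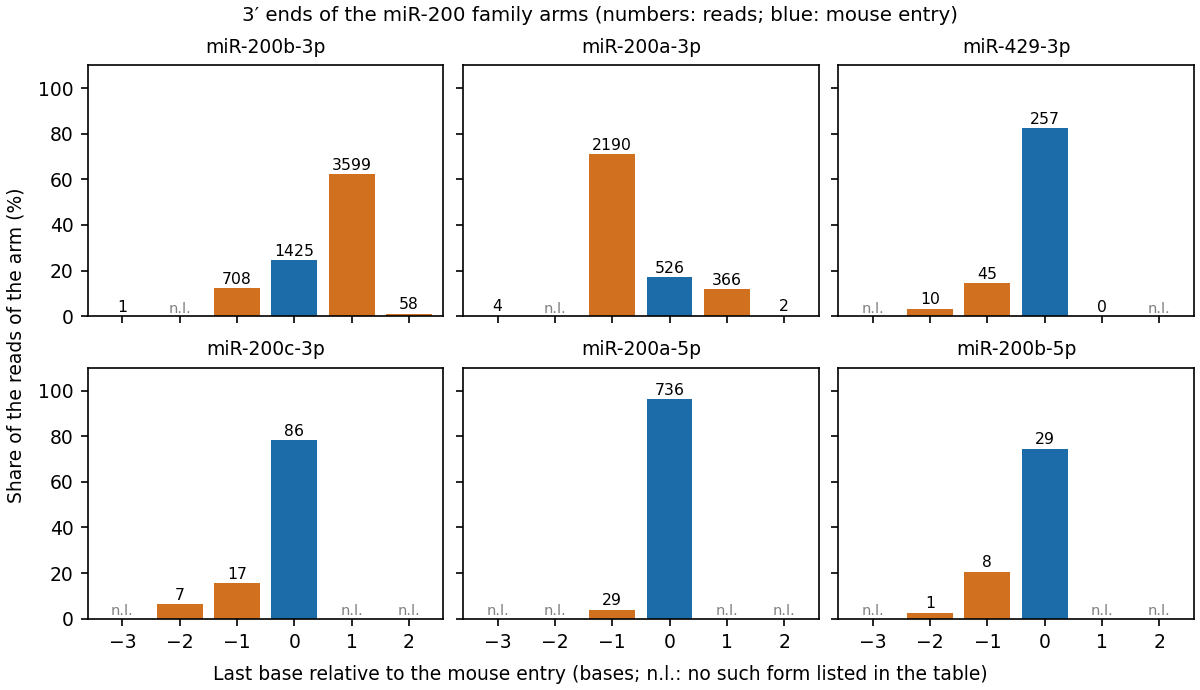
Share of the reads of each of 6 family arms by last base relative to the mouse entry, with read numbers above the bars; n.l. marks ends for which the table lists no form, and 1 read of miR-200b-5p with a later start is not drawn. The highest bar is at +1 for miR-200b-3p, at -1 for miR-200a-3p and at the mouse entry for the other 4 arms.

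**Figure D4:**
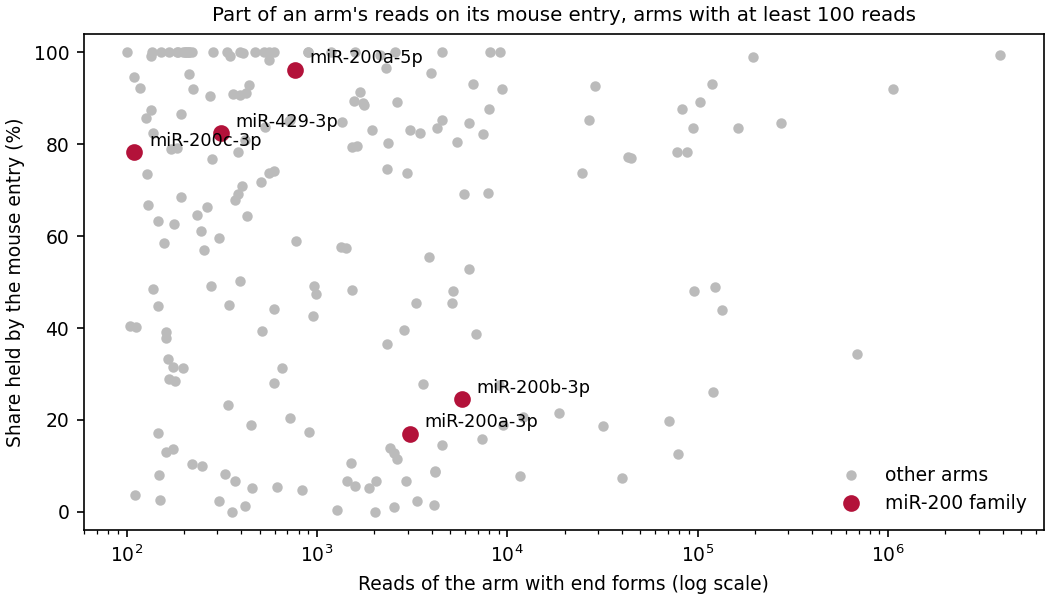
Percentage of an arm's reads held by its mouse entry against the reads of the arm (log axis) for all mouse arms with at least 100 reads, with the family in red. miR-200b-3p at 24.6% and miR-200a-3p at 17.0% lie low among many other arms, and the other 3 labelled family arms lie above 75%.

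Few reads were counted on forms with another first base, but for most family reads no such form is listed. The table lists 8 family forms that start at another base than the mouse entry, and they had 1 read in all, a form of miR-200b-5p starting 1 nt later. That is 0.00989% of family reads (0.000250 to 0.0551). Of the 95 arms with at least 1000 reads, 36 have a form with another start listed, and 20 had at least 1% of their reads at such a start. For miR-200b-3p and miR-200a-5p no form with another start is listed, so their 5791 and 765 reads could not show one. Both are among the family reads behind the 0.00989%, so it does not measure how rare other starts were. For miR-200a-3p the 2 that are listed had 0 reads, but they also end earlier than the forms that carried most reads. With the starts that could be seen, the 3p seeds were those of the mouse entries.

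Arm use differed between the hairpins. Mir200b gave 1425 reads of its 3p arm and 29 of its 5p arm, 49.1 to 1 (34.1 to 73.6), and 148.5 to 1 (108 to 209) with end forms. The latter includes the 23-nt form of the 3p arm, a length not listed for the 5p arm. At 21 and 22 nt, listed for both, the ratio was 57.6 (41.7 to 82.1). Comparisons of arms at matched lengths were chosen after the values were seen. Mir429 had 257 3p reads and 0 5p reads, at least 69.2-fold more, and Mir200c had 86 and 0, at least 22.8-fold more, each as the lower limit of the exact interval. These bounds rest on 3p lengths that are not listed for the 5p arms. At lengths listed for both arms, Mir429 had 55 and 0 reads at 20 and 21 nt, by the same limit at least 14.4-fold more. Mir200c had 24 and 0 at 21 and 22 nt, at least 6.02-fold more. Mir141 had too few reads for a ratio.

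Mir200a stood between the arms. By mouse entries its 3p arm had 0.715 reads per 5p read (0.638 to 0.800), so the 5p arm led. With end forms the 3p arm led 4.04 to 1 (3.73 to 4.37). More forms are listed for its 3p arm (6) than for its 5p arm (1). Both arms were therefore also compared at 21 and 22 nt, lengths listed for each and chosen after the values were seen. There the 3p arm had 2716 reads and the 5p arm 765, a ratio of 3.55 (3.28 to 3.85). At 22 nt alone the 5p arm led, and at 21 nt alone the 3p arm led 75.5 to 1 (52.4 to 113).

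A change of leading arm with the counting was uncommon. It occurred for 8 (6.67%) of the 120 miRNAs with both arms named and at least 100 mouse-entry reads, Mir200a among them. The minor arm held a median of 0.274% of the reads of both arms by mouse entries and 0.741% with end forms. For 2 of the 120 the minor arm held a larger part than in Mir200a by mouse entries, and for 14 with end forms. miR-200a-5p had 19.6 reads (14.2 to 27.8) per read of miR-200b-5p with end forms, although the 3p arm of miR-200b was the higher of the 2 3p arms.

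**Figure D5:**
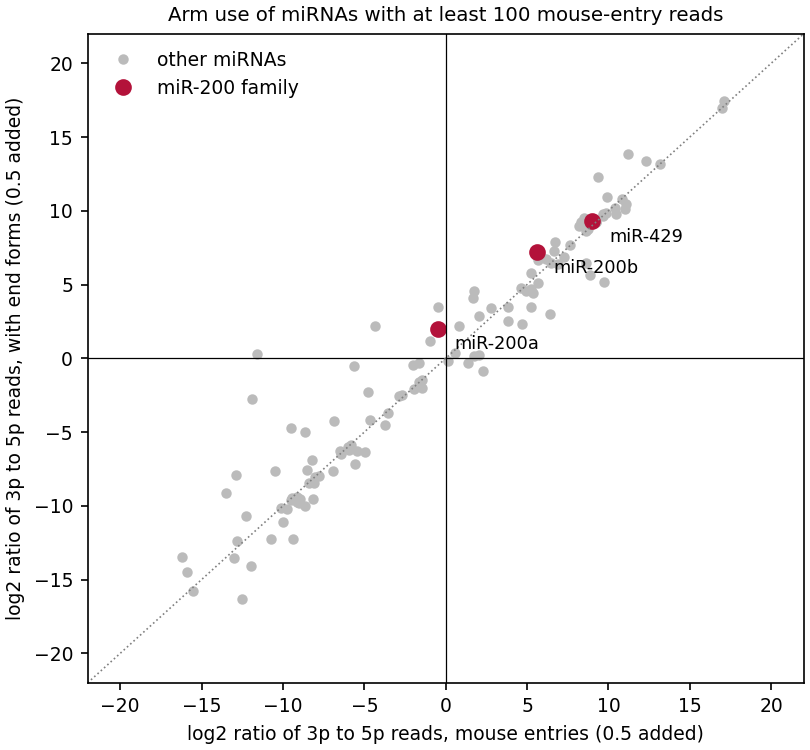
Log2 ratio of 3p to 5p reads by mouse entries (x axis) and with end forms (y axis), with 0.5 reads added to each count, for the 120 miRNAs with both arms named and at least 100 mouse-entry reads. miR-200a (red) lies in the upper left part, where the leading arm changes from 5p to 3p, and miR-200b and miR-429 lie far to the 3p side under both counts.

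Beside other epithelial and biliary miRNAs the family was the larger group. A list of the arms of miR-31, miR-182, miR-183, miR-96, miR-203, miR-205, miR-375, miR-34b, miR-34c and miR-449a had reads for 13 of 20 sequences by mouse entries and 14 with end forms. It held 1674 reads (0.0251% of mouse reads), or 3349 (0.0417%) with end forms. Its highest member was miR-203-3p, a miRNA of skin and other stratified epithelia, with 899 mouse-entry reads, or miR-182-5p with 1430 when end forms were counted. The cluster of miR-183, miR-96 and miR-182, which is in that list and is known from sensory and other epithelia, had 583 reads, or 2084 with end forms. The family had 1.83 times the reads of the list by mouse entries and 3.02 times with end forms, and 5.25 and 4.85 times those of the miR-183 cluster. miR-205-5p, a miRNA of stratified epithelia, had 2 reads, or 38 with end forms. For scale, the lists of mesenchymal and endothelial miRNAs held 2.15% and 0.908% of mouse reads, or 2.24% and 1.70% with end forms. The endothelial list is only the 2 arms of miR-126a, with 59356 of its 60508 mouse-entry reads on miR-126a-3p. In the mesenchymal list 135826 of 143471 were of miR-143-3p, so both shares rest mostly on 1 strand. The list of blood miRNAs held 0.0472%, or 0.0831% with end forms, and 2549 of its 3142 mouse-entry reads were of miR-486a-5p. The family had 0.974 times the reads of the blood list by mouse entries and 1.52 times with end forms, so their order depends on the counting.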

How the data were processed

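Per the labels' protocols, small RNA libraries were prepared from total liver RNA by adapter ligation, PCR and size selection, and sequenced as single Illumina reads. The deposited table holds raw counts of reads of 1 cleaned library per entry of a mature miRNA list of many species, per the file headers. How reads were matched and counted, and from which release of the list, is not given in the sources used here. Per the submitters' processing notes the build was mm10. Column names without a matching sample numbered 0.

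Entries of identical sequence had equal counts (0 exceptions), and each of the 30721 distinct sequences was used once, 8163802 reads in all. End forms were sought by exact match in the 2202 mouse miRNA hairpins of GENCODE M21 (GRCm38), which for the 5 family hairpins equal those of RefSeq. Near forms, which differ from a hairpin by 1 substitution or in the last 1 or 2 bases, were sought separately. Assignment and intervals were tested on simulated data.

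With 1 library no test between groups was possible, so the planned edgeR comparison was not run, nor was one with DESeq2, and no p-value is given. The members, lists and thresholds were chosen with earlier results of these data known. Named miRNAs are all family members, the highest member of a list and, beyond that rule and chosen after values were seen, miR-122-5p and miR-205-5p. Alternatives were end forms, a minimum of 10 reads, other totals, other arms, an 18-nt overlap and matched lengths, the last chosen after values were seen. Intervals were computed with SciPy 1.17.1, tables with pandas 2.3.3 and NumPy 2.4.6, and plots with matplotlib 3.10.9, under Python 3.11.15.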

Additional observations from a re-analysis of the deposited data

Results flagged for a closer look

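Reads counted for entries of other species lie outside the mouse entries, and for 6 family arms they were above the floor of 3 reads. There were 4366 such reads for miR-200b-3p, 2562 for miR-200a-3p, 55 for miR-429-3p, 29 for miR-200a-5p, 24 for miR-200c-3p and 10 for miR-200b-5p. In all they made up 69.7% (68.8 to 70.6) of the 10108 family reads, from 17 of 28 listed end forms. Each of the 28 is listed under the name of the same family member in some other species, and 2 of them, both forms of miR-200a-3p, also under a second family name.

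A 23-nt form of miR-200b-3p found in no mouse hairpin had 82 reads. It carries C23T, positions counted from 1 at the 5′ end and the base of the hairpin given first, and the form with the hairpin's base had 3599 reads. The C23T form was thus 2.23% (1.78 to 2.76) of the 23-nt reads of this arm, and its source was not tested. Of the 19 family forms that differ from a hairpin by such a change, the only other one with reads was miR-200b-3p with T17A, at 2 reads. There was no control library in which these reads could be compared.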

How the results depend on the processing

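Counting end forms moved the family share from 0.0459% to 0.126%, the cluster ratio from 34.6 to 88.5, the seed group ratio from 3.36 to 2.01 and the 3p to 5p ratio of miR-200b from 49.1 to 148.5. It turned the 3p to 5p ratio of miR-200a from 0.715 to 4.04, and matched lengths of 21 and 22 nt turned it to 3.55. Both counts include the 21-nt form of the 3p arm, with 2190 reads. The family share was 0.0375% of all sequences, 0.109% without miR-148a-3p in the total, 0.126% with an 18-nt overlap and 0.127% with near forms added. With 3p arms only the cluster ratio was 25.7, and at matched lengths of 21 to 23 nt, chosen after seeing the data, it was 80.7. By single length it was 294 at 21 nt, 130 at 22 nt and 46.1 at 23 nt. The seed group ratio was 1.42 over both arms and 1.99 at matched lengths. A minimum of 10 reads removed the 1 read at a shifted start, giving 0%, and moved none of the family share, the ratios or the members' levels beyond its interval. By mouse entries, leaving out the most abundant member of each side gave no ratio of the clusters or of the 3p seed groups, because the second side then had 0 reads. Comparisons that need several libraries (DESeq2, leaving out replicates) were not run. No paired analysis was possible because the table holds a single library. Depth limits miR-141-3p and the 5p arms other than miR-200a-5p, at 39 reads or fewer.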
